A study of Mus musculus with 10 samples.

Results

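Mid1, Sox4, Rbpms2, Ctla2a and Tnfrsf10b are 5 genes with higher values in tumor-associated macrophages (TAMs) of b3KOM mice than of WT mice. They were picked by name from the authors' deposited table of TAM genes because of that difference, so their genotype values in TAMs are given here as a description with no test. The authors' deposited tables list each with 1 probeset, and other probesets of these genes could not be sought without an array annotation. All 5 listed probesets were among the 20246 that passed the filter on dim signal, out of 35556 in the value table. Mammary fat pads of the host mice received 100000 cells of the mouse mammary cancer line PyMT-BO1-GFP-Luc, which is tagged with green fluorescent protein and luciferase, and tumors were taken on day 10. The hosts were b3KOM mice, which have integrin beta3 deleted in macrophage lineage cells, or wild-type (WT) mice. Sorted cells gave 10 Affymetrix arrays in 4 groups, with 3 arrays of CD206hi TAMs from b3KOM mice, 3 of CD206hi TAMs from WT mice, 2 of tumor cells from b3KOM hosts and 2 of tumor cells from WT hosts. The injected tumor cells are of the same line in both hosts and do not carry the host's deletion. The labels name neither the driver of the deletion, the sex or age of the mice, nor the number of mice per array. P-values therefore cover only the spread between these arrays, part of which may be technical.

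The values are log2 values from RMA, a method that corrects background, equalises the arrays and summarises each probeset. Array medians ran from 4.13 to 4.22, and the median of the whole table, 4.19, is used as a mark of dim signal. The labelled cell types were checked against marker genes. Of 16 macrophage markers, 11 had a name in the authors' deposited tables, and all 11 were called higher in TAMs, by 3.42 (Lyz2) to 5.67 (Csf1r) log2 units. Of 10 genes listed as markers of mammary tumor epithelium, Gja1 alone had a name here. It was called lower in TAMs, with a log2 difference of -2.84 ± 0.07 (SE). Its mean was still 7.85 in b3KOM TAMs and 7.38 in WT TAMs, so this 1 gene is a weak check. Markers of T cells, B cells, neutrophils, endothelium and fibroblasts are not analysed here, because 0 of them had a name, and neither is Itgb3, the deleted gene.

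The 5 genes belong to different pathways. Mid1 encodes a microtubule-bound ubiquitin ligase of the TRIM family, which with its partner alpha4 directs the breakdown of the phosphatase PP2A. In the laboratory mouse the gene lies across the boundary of the pseudoautosomal region of the X chromosome. Sox4 encodes a transcription factor of the SoxC group with an HMG box, known from progenitor cells and from carcinomas, where it acts with TGF-beta signaling. Rbpms2 encodes an RNA-binding protein that in the chick keeps visceral smooth muscle cells in an immature state and acts on BMP signaling. Ctla2a encodes a small protein that resembles the propeptide of cysteine cathepsins and inhibits them, first described in activated T cells and mast cells. Tnfrsf10b encodes the mouse death receptor for TRAIL, which starts apoptosis through caspase 8 when bound, and is a known target of p53.

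The genes lie on chromosomes X (Mid1), 13 (Sox4 and Ctla2a), 9 (Rbpms2) and 14 (Tnfrsf10b) in RefSeq's GRCm38.p6 annotation. The promoter table from RefSeq held 4 of the 5 genes. The 250 bases upstream of the annotated start are shown for them, and for Ctla2b, the neighbouring copy of Ctla2a, so that the unlike makeup of these promoters can be read. For Mid1 the farthest upstream of 3 annotated starts is shown, and for Ctla2a the farthest upstream of 2. Capitals mark matches on either strand to the letters of 5 motifs, and matches may overlap. The GC box was searched as GGGCGG, to which factors of the Sp family bind. The TATA box near many starts was searched as TATAAA, and the CCAAT box by the letters of its name. The core of sites for PU.1, a factor that macrophages depend on, was searched as GAGGAA. The site of AP-1, a factor of growth and stress responses, was searched as TGANTCA.
Mid1 (chrX:169684949-169685198, plus strand): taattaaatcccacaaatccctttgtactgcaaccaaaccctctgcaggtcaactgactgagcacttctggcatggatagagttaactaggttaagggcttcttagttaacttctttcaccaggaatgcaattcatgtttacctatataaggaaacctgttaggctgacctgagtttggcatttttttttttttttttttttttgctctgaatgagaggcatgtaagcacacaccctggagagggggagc
Sox4 (chr13:28953700-28953949, minus strand): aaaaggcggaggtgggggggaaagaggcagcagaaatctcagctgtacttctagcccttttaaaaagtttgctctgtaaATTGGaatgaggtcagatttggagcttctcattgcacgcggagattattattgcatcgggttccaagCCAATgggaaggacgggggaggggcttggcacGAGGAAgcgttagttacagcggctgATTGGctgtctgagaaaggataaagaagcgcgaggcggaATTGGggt
Rbpms2 (chr9:65630332-65630581, plus strand): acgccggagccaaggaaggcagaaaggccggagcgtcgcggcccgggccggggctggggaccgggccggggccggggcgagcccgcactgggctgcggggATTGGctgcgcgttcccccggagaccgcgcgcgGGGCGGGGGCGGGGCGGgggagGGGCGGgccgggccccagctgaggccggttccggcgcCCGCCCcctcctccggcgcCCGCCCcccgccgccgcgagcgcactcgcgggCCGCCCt
Ctla2a (chr13:60936626-60936875, minus strand): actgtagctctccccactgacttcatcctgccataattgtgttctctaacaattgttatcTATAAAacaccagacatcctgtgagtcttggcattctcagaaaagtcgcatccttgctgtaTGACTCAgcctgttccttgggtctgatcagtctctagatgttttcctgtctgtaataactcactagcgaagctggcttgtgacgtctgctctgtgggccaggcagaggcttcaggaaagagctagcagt
Ctla2b (chr13:60897448-60897697, minus strand): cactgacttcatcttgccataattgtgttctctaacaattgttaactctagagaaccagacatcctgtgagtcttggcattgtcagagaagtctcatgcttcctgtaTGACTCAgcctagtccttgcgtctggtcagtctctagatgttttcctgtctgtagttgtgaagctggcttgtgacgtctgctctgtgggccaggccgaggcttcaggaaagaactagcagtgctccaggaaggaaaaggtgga

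None of these motifs was in all 4 of the genes' promoters shown. Rbpms2 had 84.8% G and C bases and 7 GC boxes, some overlapping, and 1 CCAAT box. Sox4 had 50.8% G and C, 4 CCAAT boxes and 1 GAGGAA. Mid1 had 40.8% G and C and 0 matches upstream of the start shown, while the farthest downstream of its starts had 1 CCAAT box. Ctla2a had 46.8% G and C, 1 match to the TATA box letters and 1 AP-1 site, and the AP-1 letters were also in Ctla2b. The TATA box letters of Ctla2a lay in the far upstream part of the stretch, not near the start. The upstream stretches of Ctla2a and Ctla2b were 88.1% identical over 236 aligned positions. Among 32851 promoters of the same length, 32.7% held a GC box, 12.4% a TATA box, 33.8% a CCAAT box, 23.3% GAGGAA and 6.75% an AP-1 site, and the median G and C content was 52.4%. A match describes the letters and is not evidence that a factor binds.

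On the TAM arrays all 5 genes had b3KOM values above every WT value, a separation in that direction that 4.68% of all tested probesets had. The genes were chosen for it, so nothing is read from the count. In these sorted bulk samples, more cells that express a gene and more RNA of it per cell cannot be told apart. Array by array, the genes differed in how wide the separation was.

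Mid1 measured 7.63, 7.60 and 7.65 in b3KOM TAMs, against 6.58, 6.68 and 6.73 in WT TAMs. Tumor cells had 6.05 and 6.19 from b3KOM hosts, against 5.93 and 5.99 from WT hosts. The 4 groups thus stood in one order without overlap, b3KOM TAMs highest, then WT TAMs, then tumor cells from b3KOM hosts and last those from WT hosts. The b3KOM TAM arrays lay close together, with a mean of 7.63 ± 0.03 (SD, n = 3), against 6.66 ± 0.08 (SD, n = 3) in WT TAMs. The log2 difference was 0.96 ± 0.08 (SE), or 1.95-fold, and the gap between the lowest b3KOM and the highest WT array was 0.87, the widest of the 5 genes.

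Sox4 measured 5.97, 6.14 and 6.04 in b3KOM TAMs, against 5.39, 5.45 and 5.38 in WT TAMs. In tumor cells it measured 6.79 and 6.83 from b3KOM hosts, against 6.81 and 6.61 from WT hosts. Both tumor cell groups lay above both TAM groups and overlapped each other. The log2 difference between TAM genotypes was 0.64 ± 0.09 (SE), or 1.56-fold. The b3KOM TAM mean lay about as far below that of tumor cells from WT hosts, by 0.65 log2 units.

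Rbpms2 measured 5.06, 5.33 and 5.22 in b3KOM TAMs, against 4.60, 4.55 and 4.59 in WT TAMs. In tumor cells it measured 8.32 and 8.31 from b3KOM hosts, against 8.32 and 8.28 from WT hosts. The tumor cell arrays were nearly level, and all of them lay far above all TAM arrays. The log2 difference between TAM genotypes was 0.62 ± 0.09 (SE), or 1.54-fold, with WT TAM arrays spread by an SD of 0.03 and b3KOM TAM arrays by 0.13 (n = 3 each). The WT TAM arrays lay not far above the table median of 4.19, so this fold is approximate.

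Ctla2a measured 8.59, 8.82 and 8.50 in b3KOM TAMs, against 7.81, 8.10 and 7.91 in WT TAMs. In tumor cells it measured 9.98 and 9.74 from b3KOM hosts, against 9.90 and 9.86 from WT hosts. Tumor cells of both hosts overlapped and lay above both TAM groups. The log2 difference between TAM genotypes was 0.70 ± 0.12 (SE), or 1.62-fold.

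Tnfrsf10b measured 4.49, 4.68 and 4.77 in b3KOM TAMs, against 3.62, 4.48 and 4.05 in WT TAMs. In tumor cells it measured 7.79 and 7.87 from b3KOM hosts, against 7.72 and 7.86 from WT hosts. The receptor was bright in tumor cells and dim in TAMs, where 2 of the 3 WT arrays lay below the table median, so its fold in TAMs is no exact size. The lowest b3KOM TAM array stood 0.015 above the highest WT one. The log2 difference between TAM genotypes was 0.60 ± 0.20 (SE), and it was 0.38 without WT TAM replicate 1 and 0.81 without WT TAM replicate 2.

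**Figure D1:**
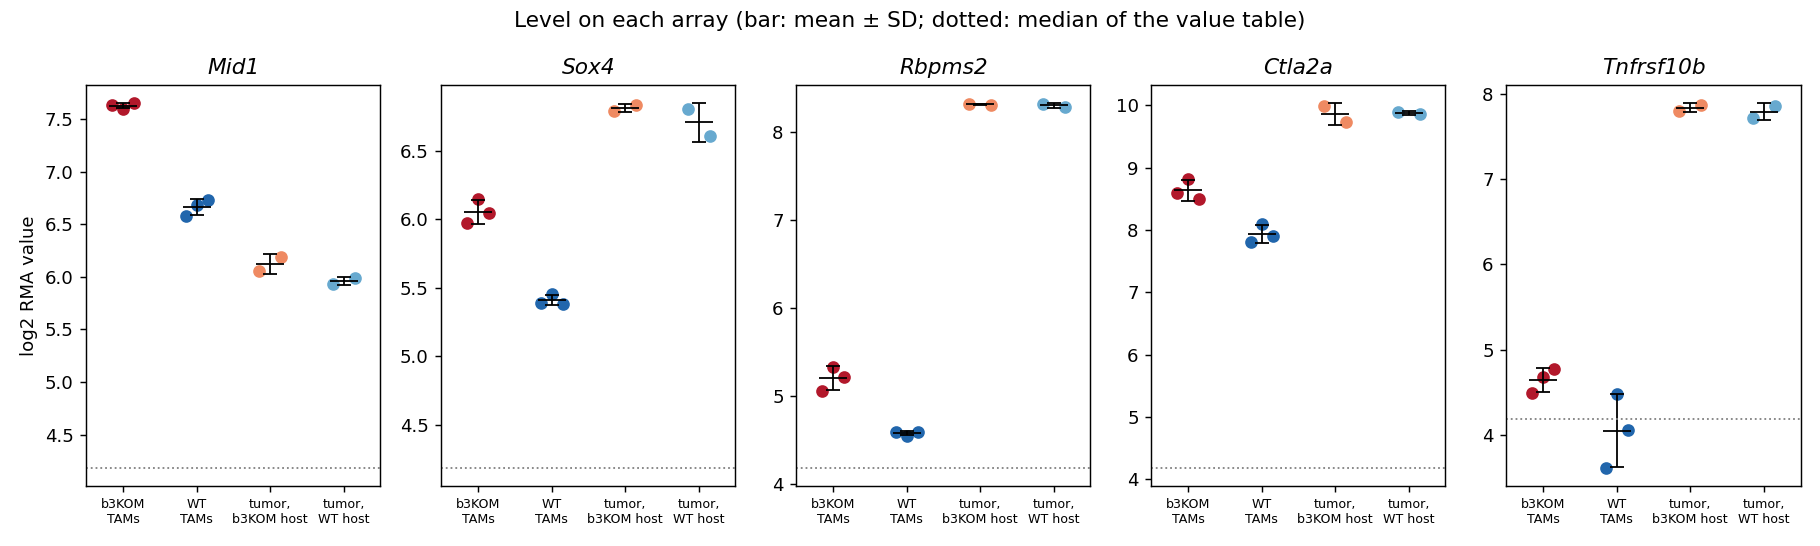
Log2 RMA value (vertical axis) of each gene on the 10 arrays by group, with points for arrays, black bars for mean ± SD and a dotted line at the table median of 4.19; each panel has its own scale. Mid1 is highest in b3KOM TAMs, and the other 4 genes are highest in tumor cells, with b3KOM TAMs above WT TAMs in each panel.

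The cell type comparison asks whether these genes were brighter in TAMs or in tumor cells, and was not used to choose them. Mid1 was higher in TAMs, with every TAM array above every tumor cell array, as in 20.8% of all tested probesets. The other 4 were lower in TAMs, with every TAM array below every tumor cell array, as in 36.7%. Mid1 differed by 1.10 ± 0.06 (SE) log2 units between TAMs and tumor cells, or 2.15-fold. Tnfrsf10b differed by -3.46 ± 0.15 and Rbpms2 by -3.42 ± 0.07, which for Rbpms2 is 10.7-fold lower in TAMs. The Tnfrsf10b difference is no exact size, since 2 of its 6 TAM arrays lay below the table median. Rbpms2 lay not far above that median in WT TAMs, so its fold is approximate too. Ctla2a differed by -1.58 ± 0.10, or 2.99-fold lower, and Sox4 by -1.03 ± 0.07, or 2.04-fold lower.

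All 5 passed in limma, with adjusted p of 8.54e-07 (Mid1), 2.14e-06 (Sox4), 1.40e-09 (Rbpms2), 1.12e-06 (Ctla2a) and 1.75e-07 (Tnfrsf10b), adjusted over the 20246 tested probesets. Calls were common in this comparison. Of all tested probesets 41.2% were called lower in TAMs and 24.9% higher, so a call by itself does not set these genes apart. With cyclic loess scaling the counts over all probesets were 6735 higher and 6307 lower, against 5050 higher and 8333 lower here, and the median difference over all probesets was 0.03 in place of -0.14. The median over the 5 genes was -1.58 without that scaling. With it the genes differed by 1.37 (Mid1), -0.80 (Sox4), -3.18 (Rbpms2), -1.32 (Ctla2a) and -3.27 (Tnfrsf10b). All but Tnfrsf10b left the 95% intervals of the fit used here, so the SEs do not cover the choice of scaling. An exact two-sided permutation test over the 10 arrays gave each gene p = 0.00952, the smallest that 210 arrangements allow.

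**Figure D2:**
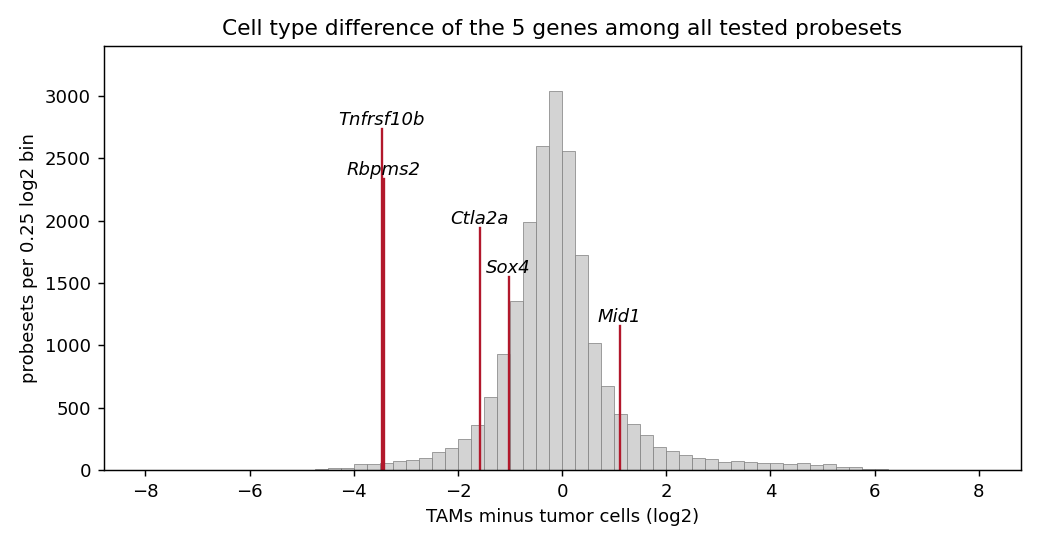
Histogram of the log2 difference of TAMs minus tumor cells over 20246 tested probesets (number per bin of 0.25), with red lines at the 5 genes, whose height carries no value. Mid1 lies at 1.10 and the other 4 between -1.03 and -3.46.

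The other rows of the authors' deposited TAM table leaned the same way. Besides these 5 genes, 57 rows had higher values in b3KOM TAMs, of which 34 were tested between cell types. Of the 34, 24 (70.6%) were called lower in TAMs than in tumor cells and 4 (11.8%) higher. Among 42 tested rows with lower values in b3KOM TAMs, 17 (40.5%) were called lower in TAMs and 16 (38.1%) higher, against 41.2% and 24.9% of all tested probesets. The difference between these lists was not tested.

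Because Rbpms2 and Tnfrsf10b were far brighter in tumor cells than in TAMs, other tumor-cell-enriched probesets were read on the same TAM arrays. There were 280 probesets over 3 log2 units brighter in tumor cells, these 2 genes among them. Their median level was 4.53, 4.47 and 4.80 on the b3KOM TAM arrays, against 4.44, 4.82 and 4.23 on the WT TAM arrays. The genotypes overlapped, with WT replicate 2 the highest array. Among the WT arrays, replicate 2 was also the highest for Tnfrsf10b and was the lowest for Rbpms2. Over the 280 probesets the median log2 difference between TAM genotypes was 0.10, with 65.4% above 0, and over all tested probesets the median was 0.006. In 7 of the 280, these 2 genes among them, all b3KOM TAM arrays lay above all WT ones. Over all tested probesets that share was 4.68% (948 of 20246). Gja1, the named marker of tumor epithelium and a weak check, is not among the 280. It measured 7.79, 7.86 and 7.90 in b3KOM TAMs, against 7.45, 7.46 and 7.22 in WT TAMs. Its arrays did not overlap between genotypes and differed by 0.47 ± 0.09 (SE) log2 units, and the authors had listed it for that difference on these arrays. What part tumor cell RNA has in the TAM values was not tested.

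**Figure D3:**
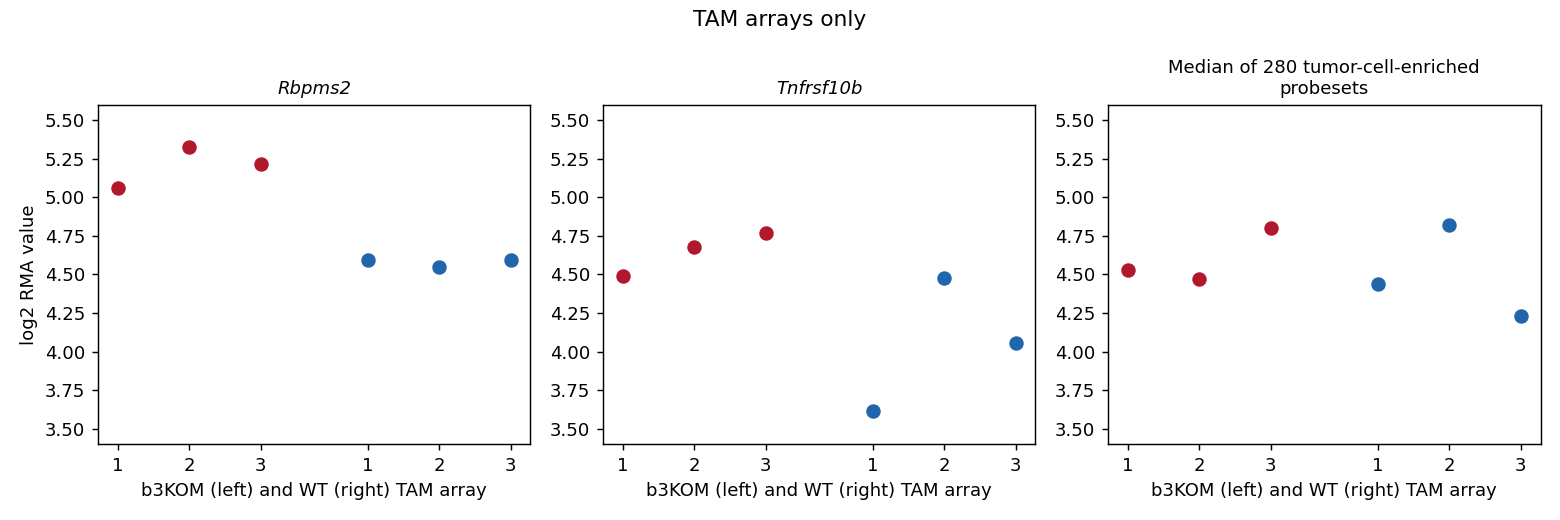
Log2 RMA value on the 3 b3KOM (left, red) and 3 WT (right, blue) TAM arrays of Rbpms2, of Tnfrsf10b, and the median of 280 probesets over 3 log2 units brighter in tumor cells. The genotypes overlap for the 280 probesets; Rbpms2 and Tnfrsf10b were chosen for being higher in b3KOM TAMs, and for Tnfrsf10b the nearest arrays of the genotypes are at 4.49 and 4.48.

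The tumor cell comparison asks whether the genes also differed in tumor cells that grew in a b3KOM host. The authors' lists are titled as unique genes of TAMs and of tumor cells. If genes shared with the other list were left out, tumor cell arrays entered the choice of these 5, and a lack of difference would be partly set by it. No difference was detected for any of the 5. Mid1 differed by 0.16 ± 0.10 (SE) log2 units with a 95% interval of -0.07 to 0.39, and Sox4 by 0.11 ± 0.11 with an interval of -0.14 to 0.35. Rbpms2 differed by 0.01 ± 0.11 (-0.23 to 0.26), Ctla2a by -0.01 ± 0.15 (-0.35 to 0.32) and Tnfrsf10b by 0.05 ± 0.24 (-0.50 to 0.59).

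In limma 0 of the 5 passed, and each adjusted p was 1, against 0.00988% of all probesets called. Over all 20246 tested probesets 503 had an unadjusted p under 0.05, and 0 of the 5 genes did. The exact permutation test over 2 and 2 arrays gave 0 as well and cannot go below p = 0.333. Whether the genotype difference itself differs between the cell types was not tested, because the TAM values chose the genes. Mid1 was the 1 gene whose tumor cell arrays did not overlap between hosts, with the b3KOM arrays higher, as in 17.2% of all tested probesets. On the same arrays the values of all 11 macrophage markers were higher with b3KOM hosts, by 0.45 (Csf1r and C1qa) to 0.88 (Tyrobp) log2 units. Limma called 0 of the 11, with 11 at an unadjusted p under 0.05, and the authors had listed all 11 for this difference on these arrays. Mid1 is also the 1 gene of the 5 that is brighter in TAMs, and the part of macrophage RNA in its tumor cell values was not tested. On the TAM arrays the 11 markers overlapped between genotypes and differed by -0.04 to 0.07.

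**Figure D4:**
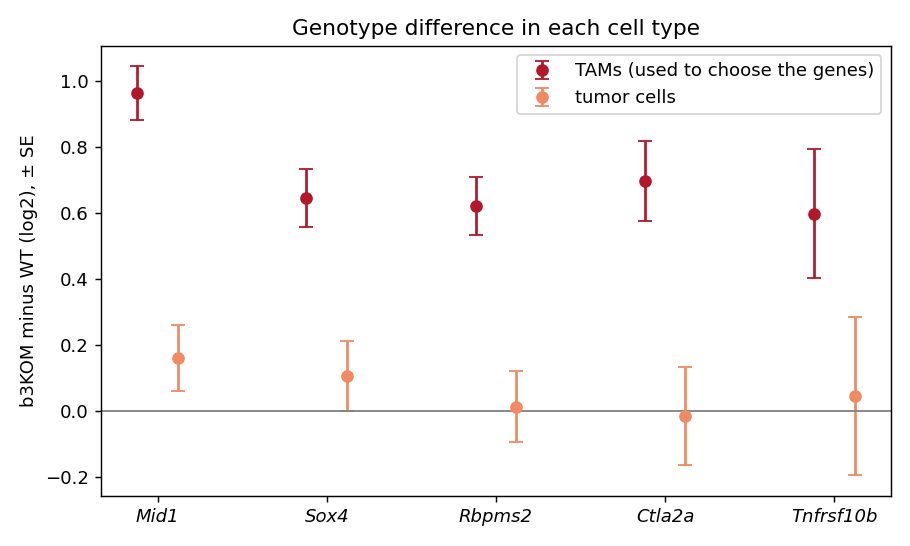
Log2 difference of b3KOM minus WT for each gene in TAMs (red) and in tumor cells (orange), with bars of ± SE from the fit over all 10 arrays. The TAM differences, which chose the genes, run from 0.60 to 0.96, and those in tumor cells from -0.01 to 0.16.

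In the authors' deposited table the log fold changes, read here as log2, run WT against b3KOM, so negative values mean higher in b3KOM TAMs. They were -0.87 for Mid1, the largest of the 62 rows in that direction, -0.69 for Ctla2a, -0.63 for Sox4, -0.61 for Tnfrsf10b and -0.60 for Rbpms2. From the array values the Mid1 difference was larger, 0.96, and the other 4 departed less. Among genes of the deposited table next to these in size, Pus7, a pseudouridine synthase, stood at -0.68, Myo9a, an unconventional myosin, at -0.65, St7l at -0.64 and Fhl3, a LIM domain protein, at -0.62.

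Ctla2b, the copy of Ctla2a, had another pattern. It measured 8.63, 8.68 and 8.50 in b3KOM TAMs, against 8.15, 8.14 and 8.52 in WT TAMs, so that WT replicate 3 reached the b3KOM range. In tumor cells it measured 7.78 and 7.50 from b3KOM hosts, against 7.60 and 7.77 from WT hosts. Ctla2b was called higher in TAMs than in tumor cells, by 0.78 ± 0.11 (SE, limma adjusted p of 0.000198), while Ctla2a was called lower. The copies are similar in sequence, so each probeset may carry signal of the other, and both values are uncertain to that extent.

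Few other genes of the pathways had a name here. Of 17 genes of the TRAIL pathway, 14 p53 targets, 11 genes around Mid1 and PP2A and 11 around the SoxC factors, the named one was in each case the gene described here (Tnfrsf10b, Mid1 or Sox4). Of 13 genes of the Rbpms family and BMP signaling, Smad5, a transducer of BMP signals, was the other named one. It was called lower in TAMs, by a log2 difference of -2.08 ± 0.08 (SE), and did not pass in tumor cells between hosts (-0.09 ± 0.12). Smad5 is a row of the authors' deposited TAM table too, and by the array values its b3KOM TAM arrays all lay above the WT ones, with a difference of 0.45 ± 0.10. Of 12 genes of the Ctla2 and cathepsin group, Ctla2b and Ctss were named besides Ctla2a. Ctss, the lysosomal protease cathepsin S, was called 3.90 ± 0.06 higher in TAMs and differed between TAM genotypes by -0.04 ± 0.08. In tumor cells Ctss differed between hosts by 0.69 ± 0.10 and did not pass, with a limma adjusted p of 0.167.

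Across the 10 arrays the named genes with the most similar profile were found by Pearson's r, which mainly reflects the 4 group means. Rbpms2 was nearest to Cbx2, a Polycomb protein (r = 0.999), Gja1, a gap junction protein (0.998), and Smad5 (0.997). Tnfrsf10b was nearest to Smad5 (0.993), Rbpms2 (0.992) and Gja1 (0.992). Sox4 was nearest to Ctla2a (0.981), Phf16 (now Jade3, 0.976) and Fhl3 (0.975), and Ctla2a to Phf16 (0.984), Adk, adenosine kinase (0.982), and Ttc8 (0.981). Mid1 stood apart from these and was nearest to Unc5d, a netrin receptor (0.957), Tceal1 (0.913) and Ctla2b (0.909). All of these neighbours come from the authors' deposited TAM table, which lists genes for their genotype difference, and Unc5d lay below the table median on all 10 arrays. By Spearman's rho the nearest 3 changed, with 2 of 3 the same for Rbpms2, 1 for Mid1 and for Sox4, and 0 for Ctla2a and Tnfrsf10b.

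Within groups the 5 genes varied together only loosely. Deviations from the group means correlated between pairs of genes with r from -0.26 to 0.63 and a median of 0.26 over the 10 arrays, with 7 of 10 pairs above 0. The highest was between Sox4 and Rbpms2 (0.63) and the lowest between Mid1 and Ctla2a (-0.26). These are descriptions on few arrays that share their normalization.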

How the data were processed

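Per the submitters' processing notes, the authors used RMA in Affymetrix Expression Console, and the deposited array values are on the log2 scale. Versions of these tools, the array model and its annotation were not given in the sources used here. Protocols in the labels state that 50 ng of RNA was amplified. Names came from the authors' deposited lists of selected genes (122 rows for TAMs, 130 for tumor cells, 251 probesets in all). Their columns, per the file headers, hold a log2 fold change (WT against b3KOM), an average, t (used as a score) and a p-value.

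A limma 3.58.1 model (R 4.3.3, lmFit and eBayes) with 1 mean per group was fitted to the 20246 probesets above the table median on at least 2 arrays. Benjamini-Hochberg adjustment ran over all of them for each contrast, and calls had an adjusted p under 0.05. The 4 groups share 1 spread, although TAM arrays are more variable, with array weights of 0.49 to 0.89 in TAMs and of 1.47 to 1.75 in tumor cells. The number of arrays limits the precision. The fit was tested on simulated data with planted changes larger than those of the genes described here in the same contrasts. That test does not bear on differences as small as theirs. Permutation tests used scipy 1.17.1 and promoter alignment Biopython 1.88.

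The 5 genes and the gene lists were chosen with earlier results of these data known. Also named are the 3 named genes nearest to each by r, the 4 next rows of the TAM table toward b3KOM, named list members and markers. Predicted genes, clones, small RNAs and large receptor or immunoglobulin families were left out among the nearest and next genes. Alternatives were other filters, scalings and spread models, fits on 1 cell type, and leaving out each array.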

Additional observations from a re-analysis of the deposited data

How the results depend on the processing

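Other filters, spread models and fits on 1 cell type leave a gene's difference nearly or exactly as it was and bear on the calls, while scaling and leaving out an array of the groups compared can move it. In these, the 5 values that changed sign were differences near 0 between tumor cells of the hosts. Ctla2a was at 0.0084 with median centring, and leaving out 1 array gave -0.14 to 0.11 for Ctla2a, -0.0046 to 0.032 for Rbpms2 and -0.025 to 0.12 for Tnfrsf10b. Without 1 array, the TAM difference between genotypes ran from 0.92 to 0.996 for Mid1, 0.60 to 0.68 for Sox4, 0.56 to 0.69 for Rbpms2, 0.60 to 0.77 for Ctla2a and 0.38 to 0.81 for Tnfrsf10b.

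Counts of genotype calls over all probesets were less stable. Between TAM genotypes limma called 3 probesets, and 9 with the filter at 4 arrays, 8 with the filter at 5 log2 units, 9 with trend and robust fitting, 0 on TAM arrays only (878 at an unadjusted p under 0.05), and 0 to 5 without 1 array. Between tumor cells of the hosts it called 2, and 0 with no filter (1045 at an unadjusted p under 0.05), 30 with array weights, 17 with trend and robust fitting, 0 on tumor cell arrays only (1154 at an unadjusted p under 0.05), and 0 to 2 without 1 array. None of the 5 genes was called in tumor cells under any of these, and all 5 stayed called between cell types. The cause of these changes was not tested. With 2 tumor cell arrays per host, small differences can be missed. The intervals given for tumor cells use the spread shared with the more variable TAM arrays. On tumor cell arrays only, each gene's SE was smaller, with the largest change for Tnfrsf10b (0.096 in place of 0.24). Tumor-cell-enriched probesets set at over 2 log2 units (785) gave a median TAM difference of 0.07. No paired analysis was possible because the array titles share no replicate numbers.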
